A study of Mus musculus with 29 samples.

Results

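Chemokines and their receptors were followed across lean, obese and formerly obese normal mammary fat of mice. The genes were taken by symbol: those named Ccl, Cxcl, Cx3cl, Xcl, Ccr, Cxcr, Cx3cr, Xcr or Ackr with a number. Of 30818 symbols measured, 57 matched, and 46 of these reached a deposited log2 value of 6, which is a normalized count of 39.9, in at least 4 libraries. These 46 genes comprised 26 ligands, 16 receptors and 4 atypical receptors. Ccr8 lay just inside the minimum, with 10 libraries at 6 or more, and Ccl28 just outside it, with 3. The 11 genes below the minimum were Ccl1, Ccl3, Ccl4, Ccl17, Ccl20, Ccl28, Cxcl2, Cxcl3, Cxcl5, Ccr3 and Cxcr1. No gene reached the minimum through 1 group alone.

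All mice were wild-type C57BL/6N. Control mice (5 libraries) ate the control diet D12450J. The other groups became obese on a diet with 60% fat (D12492) and then either remained obese (Obese, 5) or were moved to a weight-loss diet. LFD mice (5) ate a low-fat diet freely. LFCR mice (5) ate the same kind of diet cut by 30% in calories, MCR mice (4) had the same cut on a Mediterranean-style diet, and ICR mice (5) were restricted intermittently. Every mouse in every group, Control included, was injected in week 25 with E0771 cells, an established triple-negative mammary cancer line from mouse, in the fat pad of gland 4. The tissue sequenced was gland 9 of the opposite side, taken at the endpoint. Sample titles begin with "tumor", whereas the tissue field names normal tissue. The sources used here do not state the age at collection.

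Chemokines are small secreted proteins that guide the movement of white blood cells. Cells read them through receptors coupled to inhibitory G proteins, while atypical receptors bind chemokines without that signal and move or remove them. In fat, monocyte-attracting chemokines are known for drawing macrophages into the expanding depot, whereas Ccl19, Ccl21a and Cxcl13 are produced by the stroma of lymph nodes, where they place T and B cells. A mammary fat pad can contain a lymph node, so both kinds of chemokine can be present in 1 sample.

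The family sits in clusters in the genome. In the GRCm38 build with the GENCODE vM21 annotation, Ccl2, Ccl7, Ccl11, Ccl12 and Ccl8 lay together at chr11:82035571-82116799. Ccl5, Ccl9 and Ccl6 followed at chr11:83525778-83593087. Ccl27a, Ccl19 and Ccl21a lay at chr4:41769467-42773993, and Cxcl9, Cxcl10 and Cxcl11 at chr5:92321347-92365485. The receptor genes Ccr9, Cxcr6, Xcr1, Ccr1 and Ccr2 were neighbours on chromosome 9. Neighbours did not always behave alike, as the values below show.

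Depth recovered from the deposited values was 16403903 to 49026986 reads (median 37270234), and the 5 shallowest libraries, in 5 groups, shared lane 4 of the 6 lanes in the column names. Adipocyte genes were abundant in every library, with a summed normalized count of the 7 genes Adipoq, Lep, Plin1, Fabp4, Cidec, Lipe and Pnpla2 of 162188 to 757964 in 21 libraries and 499984 to 1022669 in the other 8. Luminal epithelial genes (10 genes) summed to 16225 to 75648 and 29811 to 107419 in the same libraries, and none of these markers was at 0. The 8 libraries were those with a deposited value of Glycam1 under 9. Glycam1 encodes a mucin-like protein of the vessels through which lymphocytes enter lymph nodes, and it is also known from milk. Of these, 3 were in MCR (MCR 1, 3 and 4), 2 in Obese (1 and 5), 2 in LFCR (1 and 3) and 1 in LFD (LFD 1), with none in Control or ICR. Glycam1 ran from 1.52 to 96.4 normalized counts in them and from 2982 to 20616 in the others. B cell markers (10 genes) summed to 259.9 to 795 counts in the 8 libraries and to 12339 to 77238 in the 21, and T cell markers (10 genes) to 341 to 737 and 5536 to 28131. Neither list overlapped between the classes, and no B or T cell marker was at 0 in any library.

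Levels differed widely between genes. Per kilobase of exon, the highest median was that of Ccl21a, at 9279 normalized counts (95.1 to 31949.9 over the 29 libraries). Ccl5 (1844), Cxcl14 (1726), Ccl11 (1652) and Cxcl12 (1477) came next on this scale, and the ranges of these 4 genes overlapped one another. This order is over all 29 libraries together. In the 8 libraries of low Glycam1 the medians per kilobase were 199 for Ccl21a and 135 for Ccl5, below those of Ccl11 (2345), Cxcl14 (1802), Ccl6 (1783) and Cxcl12 (1164). Cxcl14 and Cxcl12 are chemokines of resting tissue. Cxcl11 was lowest among the 46, at 10.5 per kilobase (2.35 to 22.9). All other values in the text are normalized counts per gene or log2 differences between groups, and neither compares genes with one another.

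Genes that followed lymph node content were set apart first, by the coefficient of the Glycam1 class in a fit that also held the group. A coefficient of 1 or more on the log2 scale was reached by 21 of the 46 genes, 12 receptors and 9 ligands, and 25 were below it. The choice rests on these values, so no test is given for it. Xcl1 (1.01) and Ccl12 (1.01) lay just inside the limit and Cxcl12 (0.50) was the nearest outside it. For 15 of the 21 genes the 2 classes of libraries did not overlap, and for the other 6 they did, beside 6.78% of all genes tested without overlap. The choice of the 21 largely fixes that count. Among the 25 remaining genes the classes overlapped for every one.

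**Figure D1:**
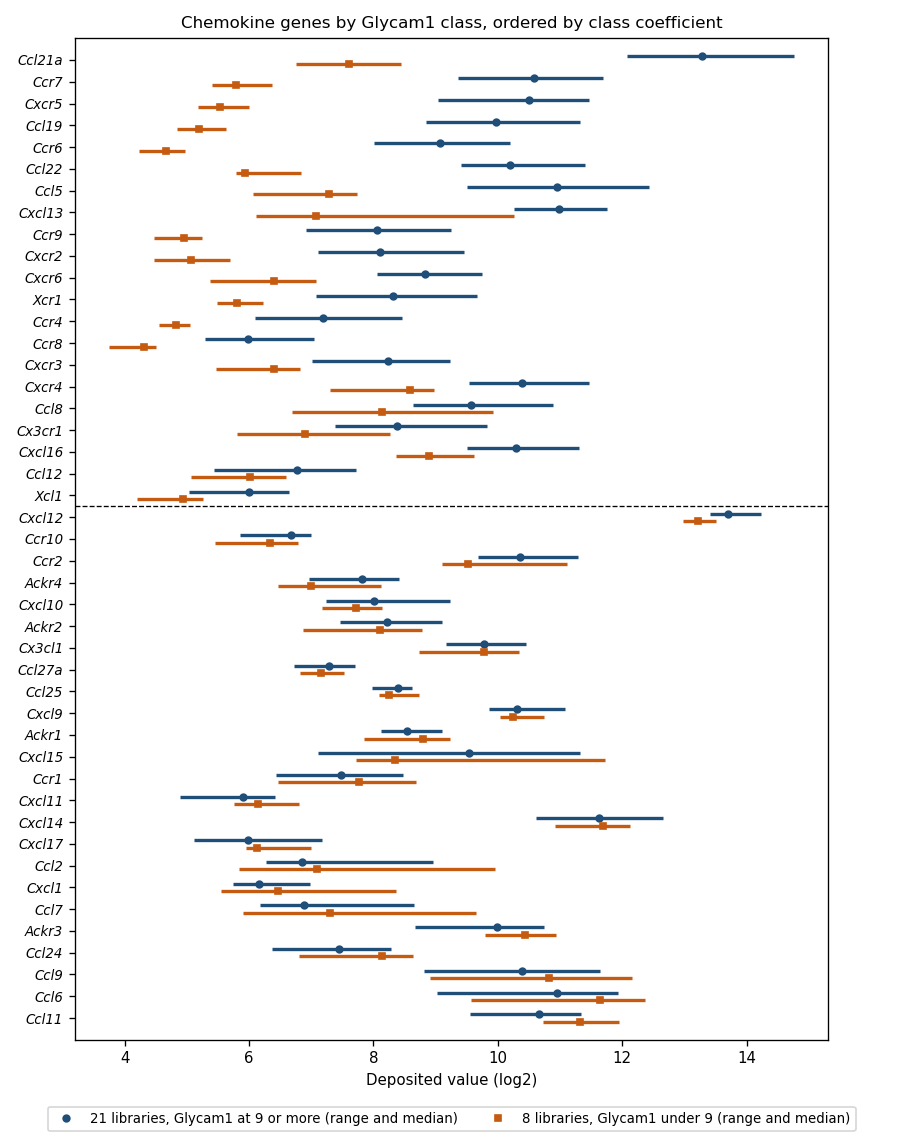
Deposited log2 values (x axis) of the genes (y axis, ordered by the coefficient of the Glycam1 class), with the range as a line and the median as a marker for the 21 libraries with Glycam1 at 9 or more (circles) and the 8 with Glycam1 under 9 (squares). Genes above the dashed line have a coefficient of 1 or more. The ranges are apart for 15 of the 21 genes above the line and overlap for every gene plotted under it.

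The genes that followed Glycam1 most closely were those that organise lymphoid tissue. Ccl21a, which with Ccl19 draws T cells and dendritic cells through the receptor Ccr7, ran from 82.7 to 321 counts in the 8 libraries and from 4286 to 27796 in the 21. Ccl19 ran from 8.03 to 26.3 against 432 to 2542, and Ccr7 from 19.7 to 57.9 against 629.6 to 3269. Their coefficients were 5.94, 4.79 and 4.96, and the ranges of the 2 classes did not meet for any of these genes. Cxcr5, the receptor with which B cells enter follicles, ran from 14.4 to 40.2 against 496 to 2791, and Ccr6, found on B cells and some T cells, from 1.52 to 10.2 against 231 to 1149.7. Ccl21a and Ccl19 have near-identical copies in the mouse genome, so their values are uncertain where a read could come from either copy.

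Cxcl13, the ligand of Cxcr5, departed from this pattern in 2 libraries. It stood at 2443, 3426, 1763, 2059 and 1871 normalized counts in Control and 1322, 2360.4, 2025, 2429.5 and 2046 in ICR, the groups with no library of low Glycam1. In Obese it was 52.9, 1411, 2153, 2431 and 91.7, in LFD 130.4, 2006, 1539.5, 1193 and 1422, in LFCR 768, 1279.5, 44.7, 1387 and 1536 and in MCR 63.1, 2463, 1193 and 161. LFCR 1 (768) and MCR 3 (1193) thus carried Cxcl13 at or near the level of libraries with high Glycam1 while their own Glycam1 stood at 96.4 and 52.8 counts. In the same 2 libraries Cxcr5 was at 21.4 and 25.9 and Ccl19 at 8.03 and 14.5, as low as in the other libraries of that class. Ccl8, a monocyte chemokine, was also high in MCR 3 (941) but not in LFCR 1 (77.6).

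**Figure D2:**
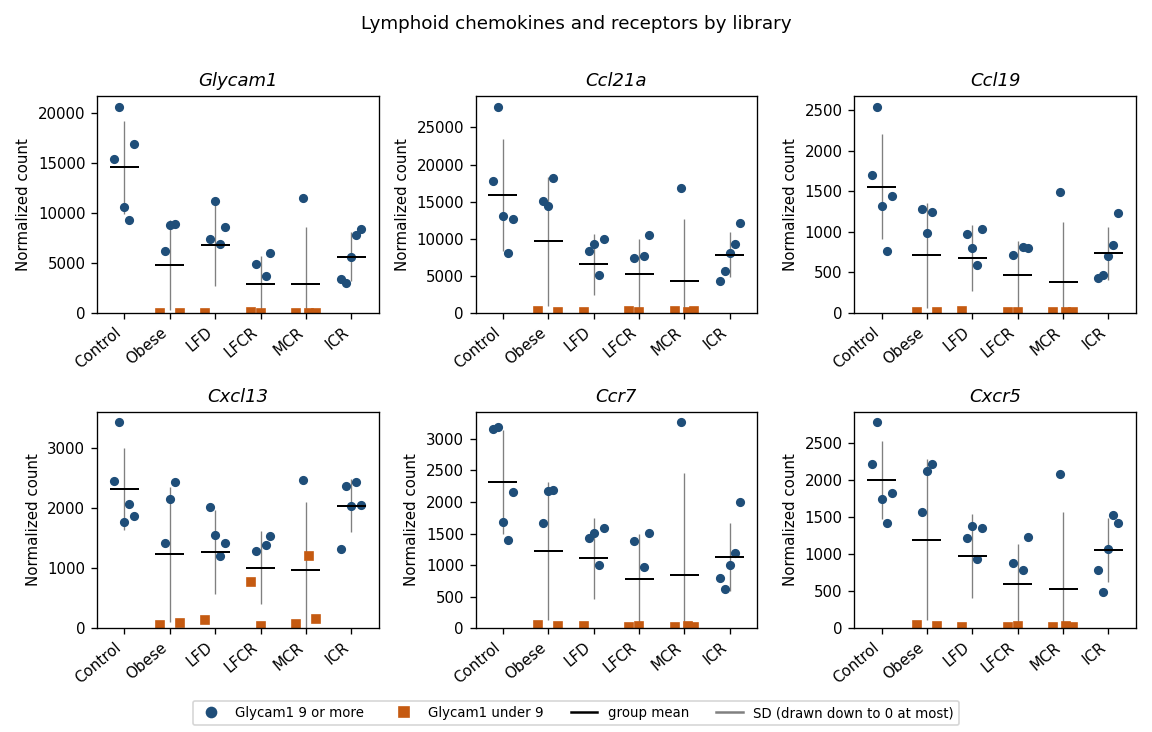
Normalized counts (y axis) of Glycam1, Ccl21a, Ccl19, Cxcl13, Ccr7 and Cxcr5 in every library of the 6 groups (x axis), with squares for the 8 libraries with Glycam1 under 9, circles for the 21 others, and the group mean and SD as lines. The squares lie near 0 in every panel except for 2 squares of Cxcl13, at 768 in LFCR and 1193 in MCR.

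The other genes above the limit belong to T cells, dendritic cells and myeloid cells that are found both in lymph nodes and in fat. Ccl5, a ligand made by T cells and natural killer cells, ran from 42.8 to 187 counts in the 8 libraries and from 699 to 5477 in the 21, and Ccl22, made by dendritic cells, from 31.8 to 88.9 against 653 to 2682. Ccr9 (3.06), Cxcr2 (2.98), Cxcr6 (2.59), Xcr1 (2.43), Ccr4 (2.32), Ccr8 (1.90), Cxcr3 (1.89), Cxcr4 (1.78), Ccl8 (1.65), Cx3cr1 (1.49) and Cxcl16 (1.37) had smaller coefficients of the class. Xcr1 marks cross-presenting dendritic cells, Cxcr2 is the neutrophil receptor and Cx3cr1 the receptor of fractalkine on macrophages. In bulk tissue, fewer cells of a type and less RNA per cell cannot be told apart, and this holds for every gene described here.

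The question for each diet was which chemokine genes differed from mice that stayed obese, and each comparison used the same 5 Obese libraries. Against Control, 4 of the 46 genes were higher in Obese (Ackr1, Ccl7, Ccl9 and Ccl11) and 4 were lower (Ackr4, Ccl25, Ccl27a and Ccr10) in limma with Benjamini-Hochberg adjustment over 19387 genes, where 9.44% of all genes passed as higher and 3.44% as lower, or 12.9% together. LFCR against Obese gave 4 higher (Ccl25, Ccl27a, Ccr10 and Cxcl11) and 8 lower (among them Ackr1, Ccl2, Ccl6, Ccl7, Ccl9, Ccr1 and Cxcl1), beside 11.9% and 9.42% of all genes, or 21.4%. ICR against Obese gave 3 higher (Ackr4, Ccl25 and Ccr10) and 5 lower (among them Ackr1, Ccl2, Ccl7 and Cxcl1), beside 3.99% and 5.23%, or 9.21%. MCR against Obese gave 1 higher (Ccr10) and 5 lower (among them Ccl6, Ccl9, Ccr1 and Cxcl1), beside 6.66% and 5.69%, or 12.4%. LFD against Obese gave only Ccl27a, higher, beside 2.7% higher and 3.28% lower, or 5.98%. The mean of the 3 calorie-restricted groups against LFD gave 0 higher and 1 lower of the 46, beside 1.68% and 1.65%, or 3.33%. The F-test over all 6 groups passed for 16 of the 46 genes, beside 33.3% of all genes. As shares of the 46 genes, these counts are 17.4% in Obese, 26.1% in LFCR, 17.4% in ICR, 13.0% in MCR and 2.17% in LFD, which is 0.364 to 1.89 times the background, with ICR at the top of that range. In the fit without a Glycam1 term, 0 of the 21 genes that followed Glycam1 passed in any of these 5 comparisons. With the Glycam1 class as a term, 6 of the 21 were lower in LFCR than in Obese, where 31.5% of all genes passed, and 6 in ICR, where 23.3% did. Without the 8 libraries of low Glycam1 these counts were 2 in LFCR (18.6% of all genes) and 4 in ICR (13.6%). That fit holds 3 Obese, 3 LFCR and 1 MCR libraries. A call lost in it therefore does not separate a smaller difference from fewer libraries. Library values did not overlap between the groups for 8 of 46 genes in LFCR (17.4% of them, beside 15% of all genes) and 8 in ICR (beside 8.84%), for 2 in LFD (4.35%, beside 5.44%) and 2 in MCR (beside 11%), and for 5 in Obese against Control (10.9%, beside 9.15%).

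**Figure D3:**
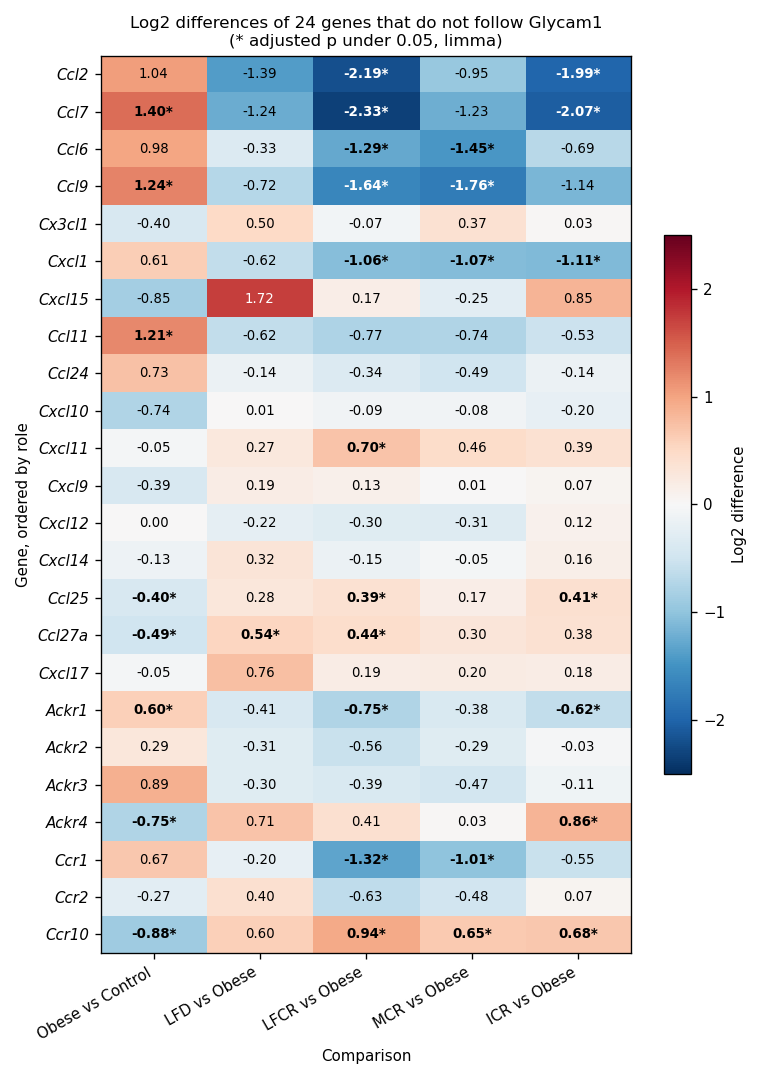
Log2 differences (colour and printed value) of 24 genes that did not follow Glycam1 (y axis, ordered by role) in 5 comparisons (x axis), with an asterisk where the adjusted p of limma is under 0.05. The monocyte ligands at the top are positive in Obese against Control and negative in all 4 diets against Obese, with asterisks mainly in LFCR and ICR, and Ccl25, Ccl27a and Ccr10 show the opposite signs.

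Ccl7, which attracts monocytes through Ccr2 and other receptors, was high in obese fat and lowest in LFCR and ICR. It stood at 63.8, 176, 90.6, 62.5 and 339 normalized counts in Control and 779.7, 377, 258, 139.7 and 536 in Obese. On the diets it was 161, 110.2, 182, 149 and 100.4 in LFD, 36.1, 48.6, 61.6, 53 and 65.2 in LFCR and 85.3, 93, 107 and 399 in MCR, with 47.9, 52.6, 76.5, 72.7 and 93.8 in ICR. Every LFCR and ICR library lay below every Obese library, whereas LFD and MCR overlapped with Obese, MCR through MCR 4. The 2 highest Obese libraries, Obese 1 and 5, were also those of low Glycam1. The log2 difference of Ccl7 was 1.40 ± 0.39 (SE) in Obese against Control (limma, adjusted p = 0.02), -2.33 ± 0.39 in LFCR against Obese (adjusted p = 0.000157) and -2.07 ± 0.39 in ICR against Obese (adjusted p = 0.00155). LFD (-1.24 ± 0.39, adjusted p = 0.0603) and MCR (-1.23 ± 0.42, adjusted p = 0.0536) did not pass in limma, and with the Glycam1 class as a term MCR passed (-1.41, adjusted p = 0.0184) while LFD did not (-1.14, adjusted p = 0.0512). The LFCR and ICR calls of Ccl7 held in every alternative tried, and without the 8 libraries they were -1.74 and -1.54. The Obese call was lost with only the groups compared in the fit, with the Glycam1 class as a term, without the 8 libraries of low Glycam1 and without Control 1, Control 4, Obese 1 or Obese 5 (limma, adjusted p = 0.0504 to 0.238).

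Ccl2, the main monocyte attractant and ligand of Ccr2, showed the same order of groups with more spread. It stood at 77.6, 239.9, 136, 55.8 and 471 counts in Control and 962, 383, 233, 90.4 and 504 in Obese, so that the 2 groups overlapped over most of their range. The diets gave 93.4, 95.2, 157, 119 and 109 in LFD, 33.5, 62.7, 52.7, 61.1 and 73.2 in LFCR and 92.9, 102, 129 and 515 in MCR, with 63.9, 52.6, 64.7, 84.9 and 71.9 in ICR. LFCR and ICR again lay wholly below Obese, and in MCR the high library was again MCR 4. Obese against Control was 1.04 ± 0.47 on the log2 scale (adjusted p = 0.142, limma) and did not pass. The differences of Ccl2 from Obese were -2.19 ± 0.47 in LFCR and -1.99 ± 0.47 in ICR (adjusted p = 0.0014 and 0.00749, limma), -1.39 ± 0.47 in LFD and -0.95 ± 0.50 in MCR (adjusted p = 0.0762 and 0.225). Both calls were lost without the 8 libraries of low Glycam1, at -1.35 in LFCR and -1.33 in ICR (limma, adjusted p = 0.0668 and 0.0555). Ccl8 and Ccl12, which lie in the same cluster on chromosome 11 and also attract monocytes, passed in no comparison with Obese in the fit without a Glycam1 term. With that term Ccl12 was -0.81 in LFCR and -0.90 in ICR against Obese (limma, adjusted p = 0.00536 and 0.00639), and without the 8 libraries the ICR difference passed (-0.86, adjusted p = 0.0311) and the LFCR difference did not (-0.65, adjusted p = 0.111).

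**Figure D4:**
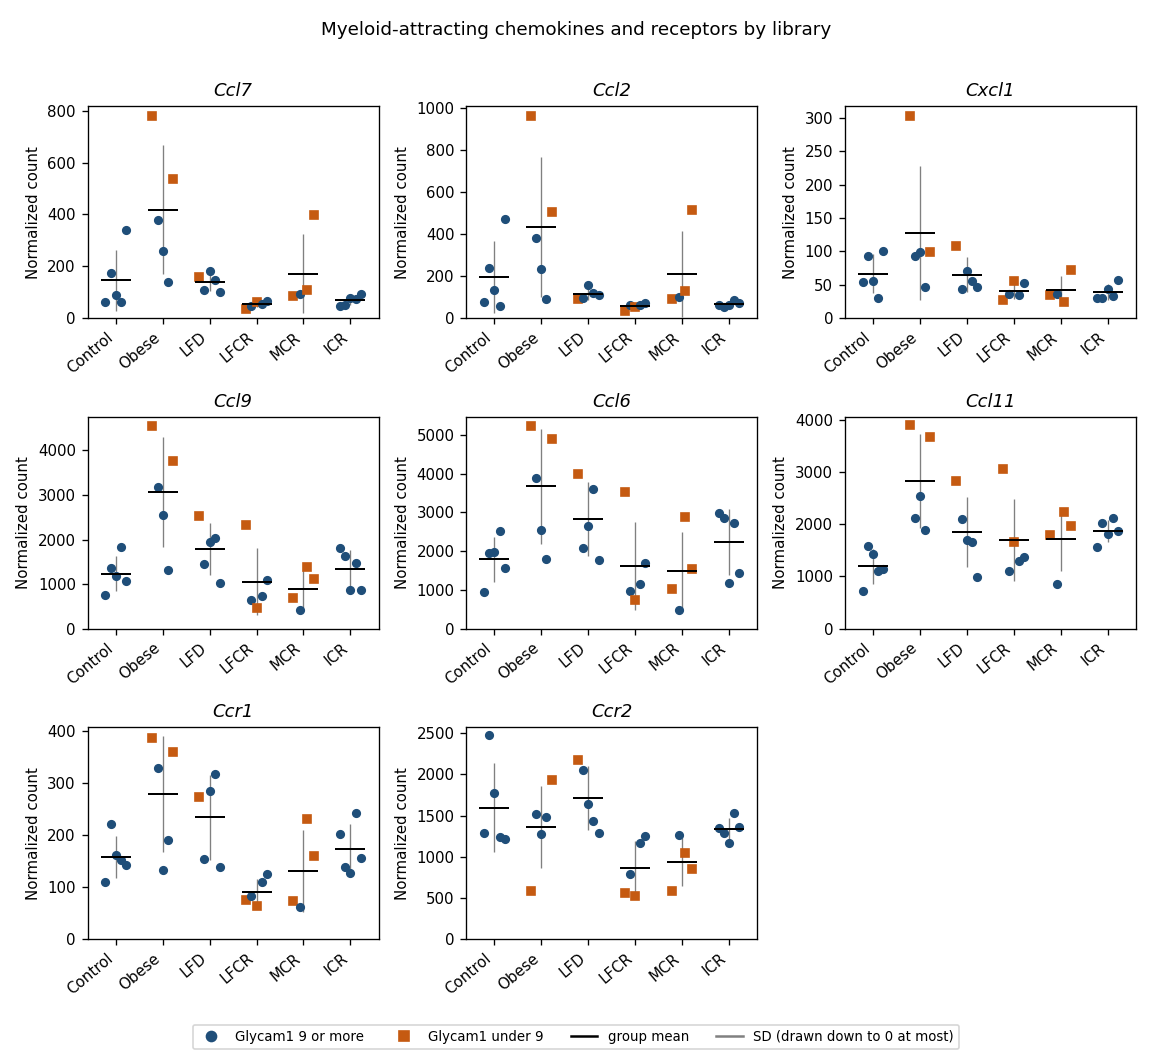
Normalized counts (y axis) of 8 myeloid-attracting chemokines and receptors in every library of the 6 groups (x axis), with squares for the 8 libraries with Glycam1 under 9, circles for the others, and the group mean and SD as lines. Ccl7 and Ccl2 are tightly low in LFCR and ICR, 1 MCR library stands at 399 and 515 for these genes, and the 5 LFCR libraries of Ccr1 lie below all of Obese.

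Ccl9 and Ccl6 lie side by side on chromosome 11 and are ligands of Ccr1 made by macrophages and other myeloid cells. Ccl9 stood at 750.3, 1354, 1187, 1823 and 1063 counts in Control, 4543, 3168, 2545, 1318 and 3755 in Obese and 2535, 1442, 1951, 2031 and 1019.8 in LFD. Under restriction it was 2334, 653, 455, 737 and 1082 in LFCR, 682, 425, 1374 and 1113 in MCR and 1802, 1641, 861, 1472 and 868 in ICR. Of the 5 Obese libraries, 4 were above all Control libraries and Obese 4 was within their range. The log2 difference of Ccl9 was 1.24 ± 0.38 in Obese against Control (limma, adjusted p = 0.0345), -1.64 ± 0.38 in LFCR against Obese (adjusted p = 0.00306) and -1.76 ± 0.41 in MCR against Obese (adjusted p = 0.00561). The Obese call was lost without the filter on low values, with only the groups compared in the fit, with lane as a term, with the Glycam1 class as a term, without the 8 libraries of low Glycam1 and without Control 1, Control 3, Control 5, Obese 1, Obese 2 or Obese 5 (limma, adjusted p = 0.051 to 0.162). The LFCR call was lost under no alternative. The MCR call was lost only without the 8 libraries of low Glycam1, where the difference was -2.30 with 1 MCR library left. Ccl6 was 952, 1953, 1984, 2518 and 1554 in Control, 5229.8, 3885, 2553, 1790.5 and 4885 in Obese, 3991, 2091, 2649, 3612 and 1781 in LFD, 3527, 974, 734, 1148 and 1700.5 in LFCR and 1033, 491, 2873 and 1529 in MCR, with 2994, 2866, 1185, 2720.2 and 1448 in ICR. LFCR 1 and MCR 3 were the high libraries of their groups and lay within the Obese range, as did ICR and LFD in large part. Ccl6 differed from Obese by -1.29 ± 0.43 in LFCR and -1.45 ± 0.45 in MCR (limma, adjusted p = 0.0317 and 0.0355), whereas Obese against Control (0.98 ± 0.43, adjusted p = 0.126) did not pass. The LFCR call of Ccl6 was lost with only the groups compared in the fit, without the 8 libraries of low Glycam1 and without Obese 1, Obese 2, Obese 5, LFCR 2, LFCR 3 or LFCR 4 (limma, adjusted p = 0.0631 to 0.101). The MCR call was lost without the filter on low values, with only the groups compared in the fit, with lane as a term, without the 8 libraries of low Glycam1, with the luminal mean as a covariate and without Obese 1, Obese 2, Obese 5, MCR 1 or MCR 2. The MCR differences in these fits were -2.35 to -1.02.

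Cxcl1 attracts neutrophils through Cxcr2. It stood at 54.2, 92.9, 56.2, 30.0 and 100.1 counts in Control and 303, 92.4, 99.2, 46.3 and 98.8 in Obese, where Obese 1 stood far above the other libraries. On the diets it was 108, 44.1, 70.5, 55.2 and 47.4 in LFD, 26.8, 35.7, 55.6, 34.1 and 52 in LFCR and 35, 36.5, 23.8 and 72 in MCR, with 30.2, 30.1, 43.1, 32.7 and 57.8 in ICR. Most libraries of the 3 calorie-restricted groups lay below every Obese library, and each group overlapped with Obese through 1 or 2 libraries. Cxcl1 differed from Obese by -1.06 ± 0.30 in LFCR, -1.07 ± 0.31 in MCR and -1.11 ± 0.30 in ICR (limma, adjusted p = 0.011, 0.0254 and 0.0177). Obese against Control was 0.61 ± 0.30 (adjusted p = 0.171). The ICR call was lost with only the groups compared in the fit, without the 8 libraries of low Glycam1 and without Obese 1 (limma, adjusted p = 0.064 to 0.0746), the LFCR call with only the groups compared in the fit and without the 8 libraries of low Glycam1 (limma, adjusted p = 0.0596 to 0.107), and the MCR call under quantile normalization, with only the groups compared in the fit, without the 8 libraries of low Glycam1, with the luminal mean as a covariate and without Obese 1, MCR 1 or MCR 3 (limma, adjusted p = 0.0504 to 0.489). Of 8 neutrophil markers tested, 3 were lower in LFCR (9.42% of all genes), 1 in MCR (5.69%) and 2 in ICR (5.23%) than in Obese. In Obese against Control 0 of the 8 markers passed in either direction. Their summed count ranged from 531 to 1903 in Control, 306 to 3049 in Obese, 292 to 1259 in LFD, 109 to 434 in LFCR and 162 to 487 in MCR, with 254 to 417 in ICR, and Ly6g, Mpo, Ngp and Camp were at 0 in at least 1 library. Their part in the result was not tested.

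The promoters of Cxcl1 and Ccl9 are shown, chosen after their values were seen, because both genes were lower in LFCR and MCR than in Obese and both held a kappaB form, GGNNTTTCC, of the kind that the inflammatory factor NF-kappaB binds. RefSeq windows (GRCm38.p6) from 250 bases before to 50 after the start were found for 34 of the 46 genes, and both strands were searched. The kappaB form lay in the windows of 5 genes, Ackr4, Ccl9, Cxcl1, Cxcl9 and Cxcl10 (13.2% of 38 windows), and in 5.82% of all 32851 windows of that length. Each stretch is given from 5′ to 3′ on the gene's own strand, with matches in capitals. In Cxcl1, the 2 matches begin 89 and 70 bases before the start. In Ccl9, 1 match begins 35 bases before the start and follows a match of the AP-1 form TGANTCA at 53 bases, a form that 7.81% of all windows held. The forms do not overlap one another in these stretches.
Cxcl1, chr5:90891125-90891244, plus strand: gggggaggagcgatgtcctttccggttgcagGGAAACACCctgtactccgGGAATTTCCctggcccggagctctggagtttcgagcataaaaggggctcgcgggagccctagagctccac
Ccl9, chr11:83578637-83578756, minus strand: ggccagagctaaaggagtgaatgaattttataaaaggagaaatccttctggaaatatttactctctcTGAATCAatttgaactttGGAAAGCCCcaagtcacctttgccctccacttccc
A match is a description of the letters and not evidence of binding.

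Ccr1, the receptor of Ccl6 and Ccl9, was 109.8, 222, 161, 153 and 142 in Control, 385, 328, 133, 189.7 and 358 in Obese, 273, 154, 285, 317 and 139 in LFD, 76.3, 83.2, 63.6, 109.6 and 124 in LFCR and 73.3, 62, 230.0 and 159.9 in MCR, with 202, 139, 127, 243 and 156 in ICR. The 5 LFCR libraries lay below every Obese library, and the other diets overlapped with Obese. Ccr1 differed from Obese by -1.32 ± 0.29 in LFCR and -1.01 ± 0.31 in MCR (limma, adjusted p = 0.00189 and 0.0327). The LFCR call was lost without the 8 libraries of low Glycam1 (limma, adjusted p = 0.075). The MCR call was lost under quantile normalization, with only the groups compared in the fit, with lane as a term, without the 8 libraries of low Glycam1 and without Obese 1, Obese 2, Obese 5, MCR 1 or MCR 2. The MCR differences in these fits were -1.41 to -0.78. Ccr2, the Ccl2 receptor of monocytes in the same cluster, passed in no comparison with Obese. Its log2 difference was -0.27 ± 0.28 in Obese against Control, -0.63 ± 0.28 in LFCR, -0.48 ± 0.29 in MCR and 0.07 ± 0.28 in ICR against Obese, and counts ran from 581 to 1932 in Obese and from 521 to 1251 in LFCR.

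Macrophage markers moved with these ligands and receptors in part, more so in LFCR and MCR against Obese than in Obese against Control. Of 12 markers, 2 were higher in Obese than in Control, among them Adgre1 (0.92, adjusted p = 0.0265, limma), and the median difference was 0.19. In LFCR 9 were lower than in Obese, in MCR 6, in ICR 4 and in LFD 1. Of all genes 9.44% were higher in Obese, and 9.42%, 5.69%, 5.23% and 3.28% were lower in LFCR, MCR, ICR and LFD. Their summed count ranged from 36314 to 73784 in Control, 40456 to 55939 in Obese, 36302 to 44933 in LFD, 14922 to 36857 in LFCR and 20879 to 39181 in MCR, with 33489.9 to 40083 in ICR. The 10 markers of lipid-associated macrophages, a state that takes up lipid in obese fat, gave 7 higher in Obese, among them Trem2 (2.72, adjusted p = 8.18e-05, limma), and 8 lower in LFCR, 8 in MCR, 8 in ICR and 7 in LFD than in Obese. Their summed count ranged from 6810.1 to 8646 in Control, 8307 to 29307 in Obese, 6624 to 13188 in LFD, 5609.7 to 7318 in LFCR and 6513 to 10838 in MCR, with 6581 to 8018 in ICR. No marker of either list was at 0 in any library. Trem2 was lower than in Obese in LFD as well (-2.33, adjusted p = 0.00115, limma). The part of macrophage content in the results for Ccl2, Ccl6, Ccl7, Ccl9 and Ccr1 was not tested.

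Ccl11 and Ccl24 attract eosinophils through Ccr3, which was below the minimum here. Ccl11, also made by fibroblasts, was 723, 1587, 1433, 1104 and 1135 in Control, 3901, 2122, 2548, 1897 and 3662 in Obese, 2832, 2093, 1703, 1653 and 985 in LFD, 3053, 1099, 1667, 1295 and 1373 in LFCR and 1788, 850.2, 2243 and 1962 in MCR, with 1570.3, 2032, 1806, 2116 and 1868 in ICR. Every Obese library lay above every Control library, and LFCR 1 was the high library of the diets. Ccl11 rose by 1.21 ± 0.29 in Obese (log2, limma, adjusted p = 0.00793), and this call held in every alternative. The differences of the diets from Obese were between -0.77 (LFCR, adjusted p = 0.061) and -0.53 (ICR, adjusted p = 0.28) and did not pass. With the Glycam1 class as a term, Ccl11 in LFCR was -0.77 and in MCR -1.06, and both passed (limma, adjusted p = 0.0029 and 0.000874). Ccl24 was 126 ± 39.3 in Control and 229.8 ± 92.9 in Obese (mean ± SD over 5 libraries each), a difference of 0.73 ± 0.33 on the log2 scale (limma, adjusted p = 0.148). Eosinophil markers (4 genes) summed to 208 to 429.9 in Control and 23.3 to 324 in Obese, and Epx and Prg2 were at 0 in at least 1 library.

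Cxcl9, Cxcl10 and Cxcl11 are ligands of Cxcr3 that interferons induce. Cxcl10 was 233, 379.8, 236, 535 and 575 in Control, 231, 214, 376, 145 and 140.3 in Obese, 135, 235, 205, 261 and 231 in LFD, 167, 166, 232, 186 and 224 in LFCR and 202, 232, 118 and 257 in MCR, with 170.4, 126, 239, 193 and 177 in ICR. Of the 5 Control libraries, 3 lay above every library of the 4 diets, while the other 2 were close to the highest of them. Cxcl10 was lower than Control in LFCR (-0.84 ± 0.25), MCR (-0.83 ± 0.27) and ICR (-0.94 ± 0.25), with adjusted p = 0.0144, 0.0279 and 0.0337 in limma, and Obese against Control was -0.74 ± 0.25 (adjusted p = 0.0517). The LFCR call held in every alternative, the ICR call was lost with only the groups compared in the fit and without Control 2, Control 4, Control 5, ICR 1, ICR 2 or ICR 4 (limma, adjusted p = 0.0549 to 0.116), and the MCR call under quantile normalization, with only the groups compared in the fit, with the Glycam1 class as a term, without the 8 libraries of low Glycam1 and without Control 2, Control 4, Control 5, MCR 1 or MCR 3 (limma, adjusted p = 0.0519 to 0.997). Against Obese, the 4 diets were between -0.20 and 0.01 and none passed. Cxcl10 shares 133 of its 2252 exon bases with Art3 on the other strand, and Art3 was higher than in Control, by 1.34 in LFCR, 1.04 in MCR and 1.34 in ICR (limma, adjusted p = 0.000737, 0.0114 and 0.00572). The part of the shared bases in the Cxcl10 result was not tested.

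The promoter window of Cxcl10 held AAANNGAAA, part of the element through which interferons act, which lay in 10.5% of the 38 windows of the family and 10.6% of all windows, so at the same rate. That of Cxcl9 did not hold it. The Cxcl10 stretch is shown because Cxcl10 was lower than Control in the 3 calorie-restricted groups and its window held all 3 forms searched. In capitals are AAANNGAAA, beginning 212 bases before the start, the kappaB form at 158 bases and the AP-1 form at 74 bases.
Cxcl10, chr5:92348890-92349129, minus strand, 5′ to 3′: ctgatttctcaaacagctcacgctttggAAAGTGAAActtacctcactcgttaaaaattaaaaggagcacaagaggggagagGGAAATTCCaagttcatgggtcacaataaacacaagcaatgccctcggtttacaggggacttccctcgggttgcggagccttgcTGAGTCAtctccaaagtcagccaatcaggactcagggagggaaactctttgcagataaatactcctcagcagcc
Its matches, too, are a description of the letters.

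Cxcl11 was low in all groups, at 42.3, 19.6, 27.4, 17.2 and 30.6 in Obese and 87, 54, 67.6, 39.5 and 43.2 in LFCR, where 4 of 5 libraries exceeded all Obese libraries. It differed by 0.70 ± 0.23 in LFCR against Obese (limma, adjusted p = 0.0272), a call lost with lane as a term, without the 8 libraries of low Glycam1 and without Obese 2, Obese 4, LFCR 1 or LFCR 3 (limma, adjusted p = 0.0521 to 0.118). The C57BL/6 strain carries a frameshift in Cxcl11, which the annotation lists as a polymorphic pseudogene, and 1582 of its 3794 exon bases are shared with the pseudogene Gm2673. Cxcl9 was 1548 ± 351 in Control and 1177 ± 297 in Obese (mean ± SD over 5 libraries each) and passed in no comparison with Obese.

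Ccl25 and Ccl27a, chemokines of epithelia, and Ccr10, the receptor of Ccl27a, were low in obese fat. Ccl25 was 316, 355, 359, 333 and 305 in Control and 245, 248, 226, 265 and 248 in Obese, so the groups did not overlap and each had little spread. On the diets it was 314, 294, 308, 309.6 and 291 in LFD, 400.2, 323, 354, 287 and 294 in LFCR and 298, 317, 249 and 259 in MCR, with 320.4, 304, 369, 368 and 320.0 in ICR. Ccl25 was -0.40 ± 0.09 in Obese against Control, 0.39 ± 0.09 in LFCR and 0.41 ± 0.09 in ICR against Obese (limma, adjusted p = 0.00378, 0.00196 and 0.00315). LFD (0.28 ± 0.09, adjusted p = 0.0549) did not pass although its libraries all lay above those of Obese, and with the Glycam1 class as a term it passed (0.29, adjusted p = 0.0311, limma). The Obese and ICR calls held in every alternative and the LFCR call was lost without the 8 libraries of low Glycam1 (limma, adjusted p = 0.0616). Ccl25 shares 204 of 7445 exon bases with Elavl1, which was lower in Obese (-0.27, adjusted p = 0.0148, limma) but differed from Obese by 0.04 in LFCR and 0.01 in ICR.

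Ccl27a was 153, 84.7, 145, 173 and 163 in Control, where Control 2 was the low library, and 88.2, 92.4, 80.4, 95.6 and 109.7 in Obese. In the diets it was 159, 117, 138, 139 and 182 in LFD, 138, 157, 114, 139 and 129.6 in LFCR and 119, 124, 109 and 129.6 in MCR, with 146, 124, 112, 128 and 131 in ICR, and LFD, LFCR and ICR lay wholly above Obese. Ccl27a differed by -0.49 ± 0.13 in Obese against Control, 0.54 ± 0.13 in LFD and 0.44 ± 0.13 in LFCR against Obese (limma, adjusted p = 0.0138, 0.015 and 0.0145). The LFCR call held in every alternative, the Obese call was lost under quantile normalization, with only the groups compared in the fit, without the 8 libraries of low Glycam1 and with the luminal mean as a covariate (limma, adjusted p = 0.0736 to 0.168), and the LFD call under quantile normalization, with only the groups compared in the fit, without the 8 libraries of low Glycam1, with the luminal mean as a covariate and without LFD 5 (limma, adjusted p = 0.0527 to 0.672). Near-identical copies of Ccl27a exist in the mouse genome, so its value is uncertain in the same way as those of Ccl19 and Ccl21a.

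Ccr10 was 93.4, 102, 54.4, 87.5 and 78.8 in Control, 21.2, 52.5, 34.2, 36.6 and 32.1 in Obese, 25.3, 89.9, 73.8, 76.1 and 69.9 in LFD, 65.6, 102, 85.4, 95.2 and 86.4 in LFCR and 71.6, 76.6, 72.5 and 48.5 in MCR, with 63.9, 52.6, 53.9, 77.8 and 102 in ICR. Every Obese library was below every Control, LFCR and ICR library, though Obese 2 (52.5) and ICR 2 (52.6) all but met, and LFD 1 and MCR 4 were the low libraries of their groups. Ccr10 fell by 0.88 on the log2 scale in Obese (limma, adjusted p = 0.00499) and was 0.94 ± 0.20 in LFCR, 0.65 ± 0.21 in MCR and 0.68 ± 0.20 in ICR against Obese (adjusted p = 0.00115, 0.039 and 0.0278). The Obese and LFCR calls held in every alternative, the MCR call was lost without the filter on low values, with only the groups compared in the fit, without the 8 libraries of low Glycam1 and without Obese 1, Obese 3, Obese 4, Obese 5, MCR 1, MCR 2 or MCR 3 (limma, adjusted p = 0.055 to 0.333), and the ICR call with only the groups compared in the fit and without Obese 1, Obese 3, Obese 5, ICR 4 or ICR 5 (limma, adjusted p = 0.05 to 0.0893). LFD against Obese was 0.60 ± 0.20 (adjusted p = 0.0675, limma) and passed with the Glycam1 class as a term (0.51, adjusted p = 0.0436). Ccr10 overlaps Cntnap1 on the opposite strand, with 0 annotated exon bases shared, and Cntnap1 showed the same pattern with larger differences: -1.04 in Obese against Control, 0.94 in LFD, 1.49 in LFCR and 1.18 in MCR, with 1.13 in ICR against Obese (limma, adjusted p = 0.00117, 0.00489, 9.32e-06, 0.000465 and 0.000429). The sources used here do not state the strand setting of the authors' counting, so reads of Ccr10 and those of Cntnap1 transcripts across it cannot be told apart.

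**Figure D5:**
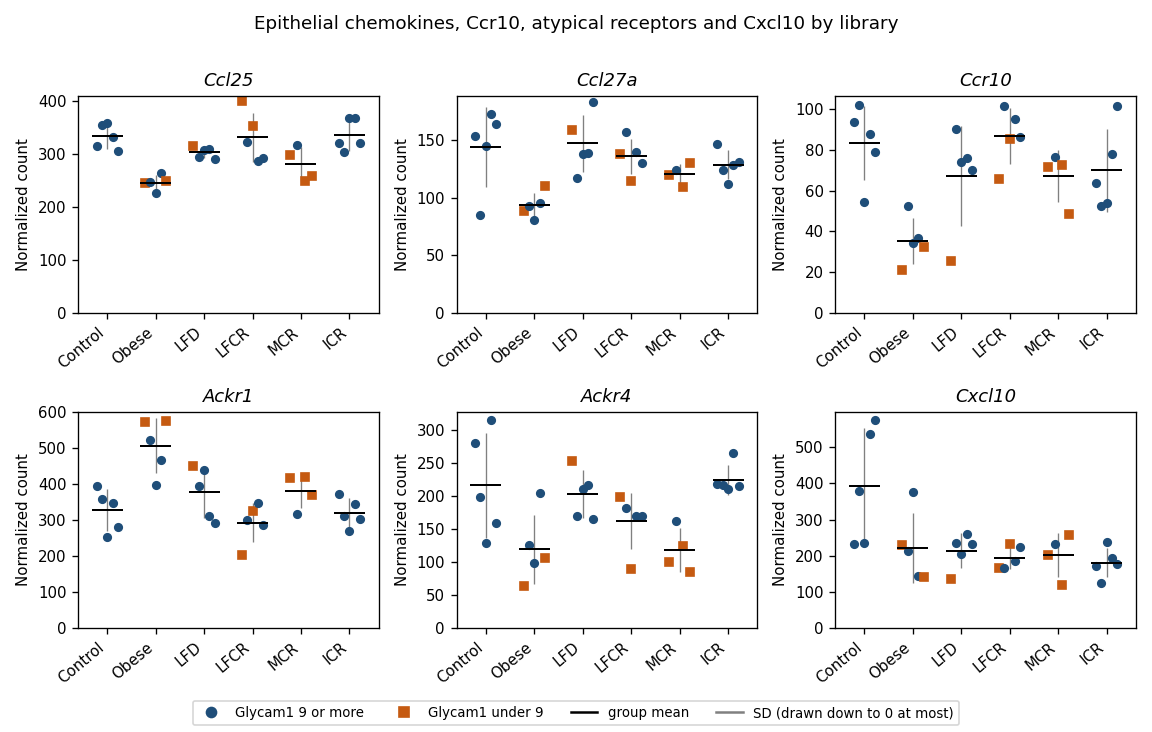
Normalized counts (y axis) of Ccl25, Ccl27a, Ccr10, Ackr1, Ackr4 and Cxcl10 in every library of the 6 groups (x axis), with squares for the 8 libraries with Glycam1 under 9, circles for the others, and the group mean and SD as lines. Obese is the lowest group for Ccl25, Ccl27a and Ccr10 and the highest for Ackr1, and Cxcl10 is spread from 233 to 575 in Control.

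Luminal epithelial markers moved with these genes in part. Of 10 markers, 3 were lower in Obese than in Control (3.44% of all genes). In LFD 8 were higher than in Obese (2.7%), in LFCR 1 (11.9%), in MCR 2 (6.66%) and in ICR 1 (3.99%). Their summed count ranged from 21072 to 67385 in Control, 16225 to 30256 in Obese, 25784 to 107419 in LFD, 29814 to 40308 in LFCR and 38579.7 to 41165 in MCR, with 33444 to 54346 in ICR, with none at 0. With the mean of these markers as a covariate, Ccl27a was -0.24 in Obese against Control and 0.16 in LFD against Obese (limma, adjusted p = 0.168 and 0.672) and passed in neither. Its call in LFCR against Obese was kept in that fit, as were the calls of Ccl25 and Ccr10. In LFD against Obese that fit passed 0.0516% of all genes, in LFCR against Obese 18.2% and in Obese against Control 14.5%. The part of epithelial content in the results for Ccl25, Ccl27a and Ccr10 was not tested. Cxcl15 and Cxcl17, the other chemokines of epithelia, had their highest group mean in LFD, where Cxcl15 was 1804 ± 1199 against 455 ± 281 in Obese and Cxcl17 77.4 ± 34.5 against 34.7 ± 10.3 (mean ± SD over 5 libraries each). Neither passed (1.72 ± 0.70 and 0.76 ± 0.29, limma, adjusted p = 0.153 and 0.119), and with the Glycam1 class as a term Cxcl17 did (0.84, adjusted p = 0.0437, limma).

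The 4 atypical receptors did not move together. Ackr1, which carries chemokines across the walls of venules, was 395, 359, 254, 347 and 281 in Control and 573, 524, 397, 468 and 575 in Obese. Obese 3 (397) lay just above Control 1 (395), so the groups did not overlap by a narrow margin. It was 449.7, 395, 439, 312 and 293 in LFD, 205, 302, 327, 348 and 287 in LFCR and 417, 317, 422 and 371 in MCR, with 373, 312, 269, 346 and 303 in ICR, and LFCR and ICR lay wholly below Obese. Ackr1 differed by 0.60 ± 0.14 in Obese against Control, -0.75 ± 0.14 in LFCR and -0.62 ± 0.14 in ICR against Obese (limma, adjusted p = 0.00835, 0.000567 and 0.00721). The LFCR and ICR calls held in every alternative, and the Obese call was lost without the 8 libraries of low Glycam1 (limma, adjusted p = 0.0949). Of 8 endothelial markers, 7 were higher in Obese than in Control (9.44% of all genes). Against Obese, 3 were lower in LFCR (9.42%), 2 in MCR (5.69%), 3 in ICR (5.23%) and 1 in LFD (3.28%). In LFCR against Control the median difference of these markers was 0.35, with 1 called higher and 0 lower. Their summed count ranged from 30609.7 to 34733 in Control, 40876 to 59406 in Obese, 32803 to 44515 in LFD, 34269 to 47543 in LFCR and 26981 to 42418 in MCR, with 34963 to 38511 in ICR, with none at 0, and their part in the result was not tested. Ackr1 shares 361 of 1405 exon bases with Cadm3 on the same strand, for which the Obese difference was 0.79 (adjusted p = 0.055, limma).

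Ackr4, which removes Ccl19, Ccl21 and Ccl25, went the other way. It was 280.1, 198, 129, 315 and 158 in Control, 63.5, 125, 99.2, 204 and 106 in Obese, 253, 169, 209.9, 216 and 165 in LFD, 198, 182, 89.4, 169.8 and 170.1 in LFCR and 99.8, 162, 124 and 85.6 in MCR, with 217, 216, 210.2, 265 and 215 in ICR. All ICR libraries were above all Obese libraries, whereas Control overlapped with Obese. Ackr4 differed by -0.75 ± 0.23 in Obese against Control and 0.86 ± 0.23 in ICR against Obese (limma, adjusted p = 0.0313 and 0.0171). The Obese call was lost with only the groups compared in the fit, with lane as a term, with the Glycam1 class as a term, without the 8 libraries of low Glycam1, with the luminal mean as a covariate and without Control 1, Control 4, Obese 1, Obese 3 or Obese 5 (limma, adjusted p = 0.0561 to 0.234), and the ICR call without the 8 libraries of low Glycam1, with the luminal mean as a covariate and without Obese 1 or ICR 4 (limma, adjusted p = 0.05 to 0.0828). Ackr4 shares 479 of 5380 exon bases with Acad11, for which the Obese difference was 0.55 (adjusted p = 0.106, limma) and the ICR difference 0.74 (adjusted p = 0.0386). Ackr2 and Ackr3 passed in no comparison, and Ackr3, a receptor of Cxcl12, was 774 ± 357 in Control and 1395 ± 442 in Obese (mean ± SD over 5 libraries each, 0.89 ± 0.35 on the log2 scale, adjusted p = 0.0891 in limma).

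Chemokines of resting tissue passed in no comparison with Obese and not in Obese against Control. Cxcl12, the ligand of Cxcr4 made by stromal cells, was 13604 ± 3346 in Control and 13714 ± 3445 in Obese (mean ± SD over 5 libraries each), a difference of 0.00 ± 0.18 on the log2 scale. Its differences from Obese ran from -0.31 in MCR to 0.12 in ICR and none passed. Cxcl14 (-0.13 in Obese against Control) was in the same position. Cx3cl1, the ligand of Cx3cr1 and not grouped here with resting tissue, passed in none of these comparisons either (-0.40 in Obese against Control, adjusted p = 0.199, limma). For Cx3cl1 the Control libraries (842 to 1269) and Obese libraries (662 to 839) did not overlap, and neither did those of MCR and Obese.

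In MCR and LFCR against Control most of the genes that passed followed Glycam1, which was at 15428, 20616, 10572, 9330.4 and 16886 counts in Control. MCR against Control gave 0 higher and 20 lower of the 46 genes, where 13.9% of all genes passed as higher and 15.7% as lower, or 29.6%, and 17 of the 20 followed Glycam1. Ccr7 (-4.03, adjusted p = 0.0306, limma) and Ccl19 (-4.03, adjusted p = 0.0269) were among them. The 10 B cell and 10 T cell markers were all lower as well. With the Glycam1 class as a term, or without the 8 libraries, 0 of the 20 passed, where 0.588% and 0% of all genes did, and the latter leaves 1 MCR library, assumed to vary like the other groups. LFCR against Control gave 1 higher (Cxcl11) and 12 lower, where 20.1% of all genes passed as higher and 18% as lower, or 38.1%. Of the 12, 9 followed Glycam1 (Ccl12, Ccr9, Cx3cr1, Cxcl16, Cxcr2, Cxcr3, Cxcr6, Xcl1 and Xcr1), and Ccr2 and Cxcl10 were among the others. With the Glycam1 class as a term 11 following genes were lower in LFCR than in Control, where 28.3% of all genes passed, and without the 8 libraries 7 were, where 25.4% did. LFD against Control gave 0 of 46 genes, where 0% of all genes passed, in limma and likewise with voom on the recovered reads, and 2 of the 46 had an unadjusted p under 0.05.

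ICR against Control compared groups in which every library had Glycam1 at 9 or more, yet the level still differed. Glycam1 was 3358, 2982, 5634, 7839 and 8429.8 counts in ICR, all below Control, and B cell markers summed to 12339 to 40022 against 30225 to 77238. Only Cxcl10 passed in the fit of all libraries, where 3.69% of all genes passed as higher and 0.882% as lower, or 4.58%. With the Glycam1 class as a term 17 of the 46 genes passed, where 23.8% of all genes did, 14 of them genes that followed Glycam1 and all 14 lower. Without the 8 libraries 15 passed, where 24.3% of all genes did, 12 of them such genes. The estimates did not move, only their errors: Ccl5 was -1.31 in the first fit (adjusted p = 0.426, limma) and -1.31 without the 8 libraries (adjusted p = 0.00863). Ccl19 (-1.06), Ccr6 (-0.98), Ccr7 (-1.06) and Cxcr5 (-0.97) passed likewise, whereas Cxcl13 (-0.17, adjusted p = 0.555, limma) did not. The part of this lower Glycam1 in the result was not tested.

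Genes around the family were read from lists. Of 12 other chemokines and chemokine-like proteins, 3 were higher in Obese than in Control, where 9.44% of all genes were. These were Pf4, a platelet and macrophage chemokine (1.24, adjusted p = 0.0264, limma), Rarres2, the adipokine chemerin (1.00, adjusted p = 0.0155), and Cmtm3 (0.44, adjusted p = 0.0474). The list's median difference was 0.21, beside -0.03 over all genes. Against Obese, 3 were lower in LFCR (Ccrl2, Cmtm3 and Ppbp), 3 in MCR and 1 in ICR, beside 9.42%, 5.69% and 5.23% of all genes. Cmklr1, the receptor of chemerin, was higher in ICR (0.96, adjusted p = 0.0376, limma). Of 28 genes of receptor signalling, 1 was lower in Obese than in Control, where 3.44% of all genes were. Against Obese, 4 were lower in LFCR (9.42% of all genes), 3 in MCR (5.69%), and 1 each in ICR (5.23%) and LFD (3.28%). Gnai2, an inhibitory G protein subunit, was -0.46 in LFCR and -0.48 in MCR against Obese (adjusted p = 0.00209 and 0.00487, limma). Rgs1, which ends G protein signals in lymphocytes, was -1.71 and -2.49 (adjusted p = 0.0337 and 0.00812). Against Control, 18 of the 28 were lower in LFCR and 18 in MCR, where 18% and 15.7% of all genes were. In MCR 10 of 10 B cell and 10 of 10 T cell markers were lower as well, with median differences of -4.73 and -3.06. In LFCR 0 of 10 B cell and 1 of 10 T cell markers passed as lower, with medians of -2.91 and -2.33, and the part of these cells in either result was not tested.

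Of 24 inducers of chemokines, 21 could be tested. Only Tnfrsf1a, the main receptor of TNF, was higher in Obese than in Control (0.53, adjusted p = 0.0125, limma), and 1 was lower. Of all genes 9.44% were higher and 3.44% lower there. Il1r1 (-0.48) and Myd88 (-0.34) were lower in LFCR than in Obese (limma, adjusted p = 0.00318 and 0.00891), where 9.42% of all genes were lower. None of the inducers passed in LFD, MCR or ICR, where 5.98%, 12.4% and 9.21% of all genes did. The cytokine genes Tnf and Il1b, named outside the rule for list genes after their values were seen, did not pass in Obese (-0.77, adjusted p = 0.31 for Tnf, -0.37, adjusted p = 0.483 for Il1b, limma).

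Lane was shared by at most 1 library of each group, so each called difference could be read within lanes. Lane and Glycam1 class were not independent. Lane 6 held Obese 1, LFD 1, LFCR 1 and MCR 1, all with Glycam1 under 9, beside Control 1 with Glycam1 at 9 or more. Every library of lane 4, MCR 2 among them, had Glycam1 at 9 or more. For LFCR against Obese, 11 of 12 called genes kept their sign in every lane that held both groups, with Cxcl1 the exception (3 of 4 lanes). All 8 did so for ICR, and 3 of 6 for MCR, where Ccl6, Ccl9 and Ccr1 had the opposite sign in 1 of 3 lanes. For Obese against Control, 6 of 8 did so, and Ccl9 and Ccl27a had the opposite sign in 1 of 4 lanes. The 1 gene called in LFD against Obese did so too. Against Control, all 13 called genes did so for LFCR and the 1 for ICR, but for MCR 3 of 20 did, and the other 17 had the opposite sign in 1 of 4 lanes.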

How the data were processed

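RNA of 29 mammary fat samples was sequenced as stranded total RNA, per the labels' protocols. The submitters' processing notes name TopHat2 2.0.7, HTSeq 0.5.3p9, DESeq2 and the mm10 build. The sources used here do not state the annotation or the strand setting of the counting. The authors deposited 1 table of log2 values, apparently DESeq2's variance-stabilised scale, with 30818 symbols and a floor of 3.75. The inverse of that transform returned whole reads for 100% of values within 0.01, which gave the depths and the normalized counts. The authors' own normalization therefore stands behind every level.

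Genes with a normalized count of 10 or more in 4 libraries (19387) were tested on the deposited log2 values with limma 3.58.1 in R 4.3.3 (trended, robust, 23 residual degrees of freedom, 10 contrasts and an F-test), with Benjamini-Hochberg adjustment over all of them and a threshold of 0.05. The fit was tested on simulated data. The labels give separate samples without stating that each is a separate mouse, so p-values measure only the spread between these libraries. Replicates were numbered in accession order. The genes chosen to be named were Ccl7, Ccl19, Cxcl13 and those past the threshold in any test, limited to the 30 with the lowest F-test p, and up to 4 genes per list and contrast. Some of them are given by all library values and the others by ranges, coefficients or differences. Results for 2 genes are not reported here. The members and lists were chosen with earlier results of these data known. Alternatives changed the filter, the normalization, the model and the libraries.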

Additional observations from a re-analysis of the deposited data

Results flagged for a closer look

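In 24 of 186 combinations of a gene and a group, 1 library stood far enough from the nearest other one to pass Dixon's 95% limit, which chance passes in about 1 of 20 groups. LFD 1 is the 1 LFD library of low Glycam1, and in LFD it was the low one for Ccl19 (26.3 counts), Ccr6 (1.95), Ccr7 (35), Ccr9 (15.6), Ccr10 (25.3), Cxcl13 (130.4), Cxcl16 (759), Cxcr2 (28.2), Cxcr3 (78.8) and Cxcr5 (16.5). MCR 2 is the 1 MCR library of high Glycam1, and it was the high one for Ccl19 (1492), Ccr4 (215), Ccr6 (768), Ccr7 (3269), Cxcr5 (2089) and Xcr1 (436).

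The other flags fell on single genes. Ccl7 in MCR 4 was 399 against 85.3 to 107 in the other MCR libraries, and Ccr10 was low there (48.5). Cxcl13 was low in LFCR 3 (44.7), a library of low Glycam1, as was Ackr4 (89.4). Ackr4 was high in ICR 4 (265). Ccl12 in ICR 2 was 20.7, Ccl27a in Control 2 84.7 and Cx3cr1 in LFD 2 346.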

How the results depend on the processing

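The count of the 46 genes that passed was recomputed under each alternative. Beside it stands the number or share of all genes that passed, except for fits that left out a single library. The shares in the full fit are given above. With only the groups compared in the fit, the count was 4 in Obese against Control (8 in the full fit), 0 in LFD against Obese (1), 2 in MCR against Obese (6), 2 in the calorie-restricted diets against LFD (1), 0 in MCR against Control (20) and 0 in ICR against Control (1). In the same order 1082, 140, 1135, 535, 1 and 888 of all 19387 genes passed. With the Glycam1 class as a term the counts, in the order Obese against Control, LFD, LFCR and ICR against Obese, the restricted diets against LFD, MCR and ICR against Control and the F-test, were 5, 4, 19, 15, 3, 0, 17 and 25 (8, 1, 12, 8, 1, 20, 1 and 16 in the full fit). In that order 9.01%, 11.6%, 31.5%, 23.3%, 5.88%, 0.588%, 23.8% and 44.8% of all genes passed. Without the 8 libraries of low Glycam1 they were 3 in Obese against Control, 0 in LFD against Obese and 15 in ICR against Control. In that order 3.24%, 0.882% and 24.3% of all genes passed. No count is given there for comparisons that involve MCR, which kept 1 library. With lane as a term the counts were 3 in LFD against Obese, 0 in the restricted diets against LFD and 2 in ICR against Control. Of all 19387 genes, 1041, 284 and 1274 passed there. With the luminal mean as a covariate the counts were 0 in LFD against Obese, 0 in the restricted diets against LFD and 24 in LFCR against Control (13). The shares of all genes were 0.0516%, 0.155% and 46.6%. LFD against Obese gave 2 with the filter at a value of 6, where 1129 of 16038 genes passed. It gave 0 under quantile normalization and 2 with voom on recovered reads, where 989 and 1102 of 19387 genes passed. MCR against Control gave 12 without a filter, where 4398 of 30818 genes passed. Leaving out 1 library at a time gave 5 to 10 in Obese against Control, 0 to 5 in LFD, 10 to 13 in LFCR, 1 to 8 in MCR and 5 to 9 in ICR against Obese, 0 to 3 in the restricted diets against LFD, 0 to 0 in LFD, 5 to 19 in LFCR, 0 to 26 in MCR and 0 to 1 in ICR against Control, and 12 to 32 in the F-test.

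Direction reversed for 14 values that passed in the full fit, in the alternative or in both. In ICR against Obese with the Glycam1 class as a term these were Ccr6 (-1.01), Ccr7 (-0.99) and Cxcr5 (-0.89), and without the 8 libraries Ccr6 (-1.15) and Cxcr5 (-0.97). In MCR against Control without the 8 libraries they were Ccl19 (0.040), Ccr4 (0.42), Ccr6 (0.10), Ccr7 (0.56), Ccr9 (0.051), Cxcl16 (0.13), Cxcr4 (0.12), Cxcr5 (0.10) and Xcr1 (0.075), with MCR 2 the only MCR library, assumed to vary like the other groups. Of the other values, 5650 kept their side of the threshold, 316 no longer passed and 127 newly passed. The 5650 include values that changed direction while passing in neither fit, and these were not counted apart. The cause was not tested. No paired analysis was possible because the replicate numbers follow accession order and pair no samples, and lane, which holds at most 1 library of each group, was entered as a term instead. The 5 shallow libraries limit the precision of low genes such as Cxcl11 and Ccr8.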
